A study of Mus musculus with 8 samples.

Results

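The interferon gamma induced GTPases followed here were 3 guanylate-binding protein genes (*Gbp2*, *Gbp3* and *Gbp7*) and 4 immunity-related GTPase genes (*Iigp1*, *Igtp*, *Irgm1* and *Irgm2*). They were taken by symbol from the platform annotation of the arrays, and a gene with several transcript clusters (the set of probes that reads a gene) would have been represented by the cluster with the highest mean over the 8 arrays. Each of the 7 genes had 1 cluster, out of 19505 genes that carried a symbol. The list held 8 genes, and the eighth, *Gbp5*, bore no cluster under its symbol and was not analysed here.

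The arrays were hybridised with total RNA from the spleens of C57BL/6 mice. The 4 control arrays came from *Trp53KI/KI* animals and the 4 lymphoma arrays from lymphoma-bearing *Trp53KI/KI;Vav1DC/DC* animals. Both groups thus share the first of these alleles. As the study describes it, the *Vav1DC* allele makes, from its own locus, a VAV1 protein cut short in its C-terminal SH3 domain. No spleen without the shared allele and no *Vav1DC/DC* spleen without lymphoma was part of the comparison, so the genotype and the disease cannot be told apart. The labels give neither age nor sex, and nothing in them states that the arrays of a group came from separate animals, so a p-value given below speaks of the spread among these 8 arrays, which may be technical. The spleens were read whole, and fewer cells of a type and less RNA per cell cannot be told apart in such samples.

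Guanylate-binding proteins (GBPs) and immunity-related GTPases (IRGs) are large and medium-sized GTP-hydrolysing proteins that cells make upon exposure to interferon gamma. They assemble on the membranes of vacuoles that hold bacteria or parasites, help to open them, and pass on the contents to inflammasomes and to the autophagy machinery. Among the IRGs of the mouse, *Iigp1* is an effector that coats such vacuoles, whereas *Igtp*, *Irgm1* and *Irgm2* make regulatory proteins that sit on the cell's own membranes and keep the effectors inactive there. Interferon gamma acts through JAK kinases on factors that bind the gamma-activated sequence (GAS), while type I interferons act through a complex with IRF9 that binds the interferon-stimulated response element (ISRE), a motif that IRF1 also recognises.

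The start-proximal sequences of these genes are shown first, since they hold the motifs that interferon-activated factors are known to bind. They were taken from RefSeq promoter entries (build GRCm38.p6), each of 300 bases, from 250 before to 50 after a start of the gene. Of the 7 measured genes, 6 had an entry. Capitals mark the letters TTCNNNGAA for GAS, which reads alike on both strands, and GAAANNGAAA or its reverse complement TTTCNNTTTC for ISRE. Each window below holds the 120 bases just before the start of its entry, written 5′ to 3′ along the gene's own strand. The members come first, then 2 relatives from the same chromosome 11 clusters that rose (*Tgtp2* and *Gm12250*) and 2 that did not (*Gm5431* and *9930111J21Rik2*), to set the windows of both kinds side by side.
Gbp2 (chr3:142620543-142620662, plus strand): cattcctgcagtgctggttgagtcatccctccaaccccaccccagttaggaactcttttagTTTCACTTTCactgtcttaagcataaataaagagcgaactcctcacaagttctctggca
Gbp7 (chr3:142530216-142530335, plus strand): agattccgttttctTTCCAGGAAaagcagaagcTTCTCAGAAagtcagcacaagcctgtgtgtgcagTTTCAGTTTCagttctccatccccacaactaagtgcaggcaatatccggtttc
Gbp3 (chr3:142559924-142560043, plus strand): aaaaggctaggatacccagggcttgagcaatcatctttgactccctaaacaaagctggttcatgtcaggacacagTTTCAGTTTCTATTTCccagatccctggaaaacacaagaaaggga
Igtp (chr11:58199436-58199555, plus strand): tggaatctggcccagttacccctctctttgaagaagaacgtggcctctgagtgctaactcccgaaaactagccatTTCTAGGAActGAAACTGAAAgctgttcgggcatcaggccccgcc
Irgm2 (chr11:58214857-58214976, plus strand): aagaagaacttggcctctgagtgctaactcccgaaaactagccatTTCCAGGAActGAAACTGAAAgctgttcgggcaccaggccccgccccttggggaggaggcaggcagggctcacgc
Irgm1 (chr11:48871421-48871540, minus strand): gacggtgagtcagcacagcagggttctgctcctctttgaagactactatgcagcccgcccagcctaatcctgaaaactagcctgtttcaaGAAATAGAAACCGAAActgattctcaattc
Tgtp2 (chr11:49064213-49064332, minus strand): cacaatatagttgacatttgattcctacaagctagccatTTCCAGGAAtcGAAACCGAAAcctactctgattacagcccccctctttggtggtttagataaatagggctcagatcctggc
Gm12250 (chr11:58183723-58183842, plus strand): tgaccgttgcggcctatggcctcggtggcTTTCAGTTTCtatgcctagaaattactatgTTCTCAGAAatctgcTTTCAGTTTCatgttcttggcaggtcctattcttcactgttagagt
Gm5431 (chr11:48902153-48902272, minus strand): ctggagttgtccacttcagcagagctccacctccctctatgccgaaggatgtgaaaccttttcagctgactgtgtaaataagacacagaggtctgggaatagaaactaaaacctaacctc
9930111J21Rik2 (chr11:49051243-49051362, minus strand): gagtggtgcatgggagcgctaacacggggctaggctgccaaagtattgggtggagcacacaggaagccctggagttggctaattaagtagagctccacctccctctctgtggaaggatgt

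An ISRE was found in 6 of the 6 members shown and a GAS in 3 of them, *Gbp7*, *Igtp* and *Irgm2*. Over the 27025 genes with promoter entries of the same length, 3.99% held an ISRE in any entry, 9.55% a GAS and 0.54% both in 1 entry. The ISRE of *Gbp2* ended 50 bases before the start, that of *Gbp7* ended 44 bases before it, and in *Gbp3* and *Irgm1* a pair of ISRE matches overlapped each other. In *Gbp7* the GAS was present at 2 places, 98 and 79 bases before the start at their ends. *Gbp3* had a second entry, for another start, without either motif. The gene record of *Gbp3* begins at 142560016, inside the printed window, so its distances are from the start of the entry. *Igtp* and *Irgm2*, neighbours on chromosome 11, shared an unbroken run of 38 bases in their windows, the longest among the 45 pairs of the 10 windows examined, of which the other pairs shared at most 18. In both genes the ISRE closely followed the GAS, with GAS and ISRE ending 37 and 25 bases before the start of *Igtp* and 67 and 55 bases before that of *Irgm2*. A match is a description of these letters and was not tested as a binding site.

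**Figure D1:**
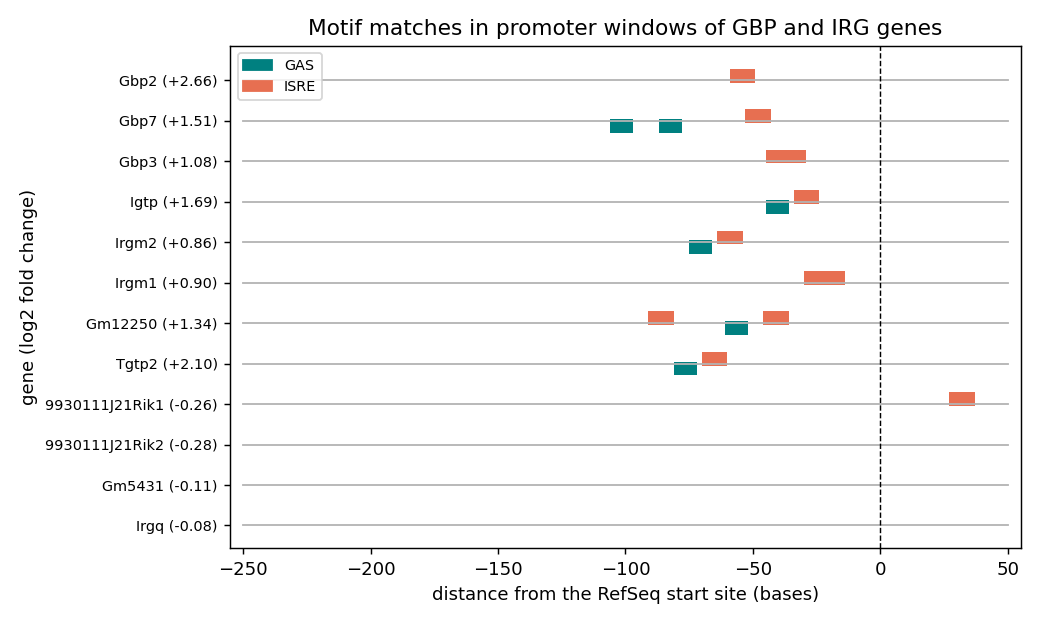
Position of GAS and ISRE matches in the RefSeq promoter entries of the GBP and IRG genes, in bases from the start of each entry (horizontal axis). There is 1 line per measured gene with an entry, and its log2 fold change is beside the name. Of the *Gbp3* entries, the one with matches is drawn. ISRE matches of the members lay between 64 and 15 bases before the start.

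The data are log2 values made by robust multichip average on Clariom S HT arrays, where 1 unit is a doubling and a value of 7.2 was about the middle of an array (array medians, 7.19 to 7.24). Arrays of the same genotype correlated at 0.992 to 0.995 over the 22206 transcript clusters and arrays of different genotype at 0.967 to 0.979. *Kdm5d*, *Uty* and *Eif2s3y*, which are Y-linked, were far above the background probe sets on all 8 arrays (array background medians, 4.76 to 4.94). The study's methods speak of female animals for its in vivo work, and its results of male and female *Vav1DC/DC* mice watched for tumours. The 3 Y-linked genes were 1.25 to 1.38 lower on the log2 scale in the lymphoma group, so the sex make-up of the groups may differ, which was not tested. They were lowest on lymphoma array 3, and the GTPase changes are given both with and without that array. Leaving it out does not remove the Y-linked difference, since all 3 genes were below every control array on each lymphoma array. *Kdm5d*, for example, read 7.17 to 8.01 in the lymphomas and 8.91 to 9.15 in the controls. *Vav1* itself was 0.31 higher in the lymphoma spleens (limma adjusted p = 0.0149). Beyond this, the number of arrays limits the precision of each value.

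The lymphoma spleens held more RNA of all 7 measured GTPases, relative to the rest of the array. Each was called higher by limma (adjusted p no greater than 0.05 over all clusters), a call made for 18.2% of all clusters, with 17.2% called lower and 35.4% called in either direction. The lymphoma values did not overlap the control values for any of the 7, a separation seen in this direction for 18.0% of all clusters. At least a doubling was called for 5 of the 7, against 3.03% of all clusters. The median log2 fold change of the 7 genes was 1.51 and that of all clusters was -0.06. All 7 genes were above the median of the background probe sets on all 8 arrays.

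*Iigp1*, the vacuole-coating effector encoded on chromosome 18, moved most. Its log2 value was 7.98, 7.65, 8.28 and 7.80 on control arrays 1 to 4 and 10.99, 11.14, 10.66 and 11.09 on lymphoma arrays 1 to 4. A gap of 2.38 separated the highest control array from the lowest lymphoma array. The difference of 3.04 ± 0.14 (SE, n = 4 per group) is 8.25-fold, the 21st largest increase among the 19505 named genes (limma adjusted p = 7.59e-09). Its spread within groups was the widest of the 7 genes (SD, 0.27 in the controls and 0.22 in the lymphomas).

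*Gbp2*, a GBP that targets pathogen-containing vacuoles and is widely used as a readout of interferon signalling, came next. Its log2 value was 8.73, 8.55, 8.72 and 8.66 in the controls and 11.32, 11.41, 11.16 and 11.40 in the lymphomas. The groups lay 2.42 apart at their nearest arrays, slightly more than for *Iigp1* although the mean difference was smaller. The increase of 2.66 ± 0.08 (SE, n = 4 per group) is 6.30-fold and had the smallest adjusted p of the 7 genes (limma, 2.8e-10).

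The remaining GBP genes lie beside *Gbp2* on chromosome 3. *Gbp7*, whose protein also acts at parasite vacuoles, read 10.17, 10.00, 10.18 and 9.94 in the controls and 11.66, 11.62, 11.51 and 11.56 in the lymphomas. *Gbp3* read 10.07, 9.75, 9.97 and 9.92 in the controls and 11.04, 11.04, 11.01 and 10.95 in the lymphomas. Both groups of arrays were tight and apart for each gene, and the lymphoma arrays of *Gbp3* spanned less than 0.1. The log2 difference was 1.51 ± 0.08 for *Gbp7* (2.85-fold, limma adjusted p = 3.23e-08) and 1.08 ± 0.08 for *Gbp3* (2.12-fold, 5.02e-07; SE, n = 4 per group).

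The regulatory IRGs changed less than the effector *Iigp1*. *Igtp*, also known as *Irgm3*, read 8.63, 8.36, 8.73 and 8.60 in the controls and 10.35, 10.42, 10.10 and 10.23 in the lymphomas, a difference of 1.69 ± 0.10 (3.24-fold, limma adjusted p = 5.26e-08). *Irgm1*, which is needed in mice for resistance to mycobacteria and for the upkeep of blood-forming cells, read 10.24, 10.08, 10.17 and 10.10 in the controls and 11.01, 11.16, 10.91 and 11.13 in the lymphomas. *Irgm2* read 9.0, 8.74, 9.09 and 8.94 in the controls and 9.85, 9.87, 9.64 and 9.84 in the lymphomas. None of the 3 genes had a lymphoma array at or below a control array, but the distance between the groups shrank from 1.37 for *Igtp* to 0.66 for *Irgm1* and 0.55 for *Irgm2*. *Irgm1* and *Irgm2* rose by 0.90 ± 0.08 and 0.86 ± 0.09, short of a doubling (1.87-fold and 1.81-fold, limma adjusted p = 2.35e-06 and 9.91e-06; SE, n = 4 per group).

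**Figure D2:**
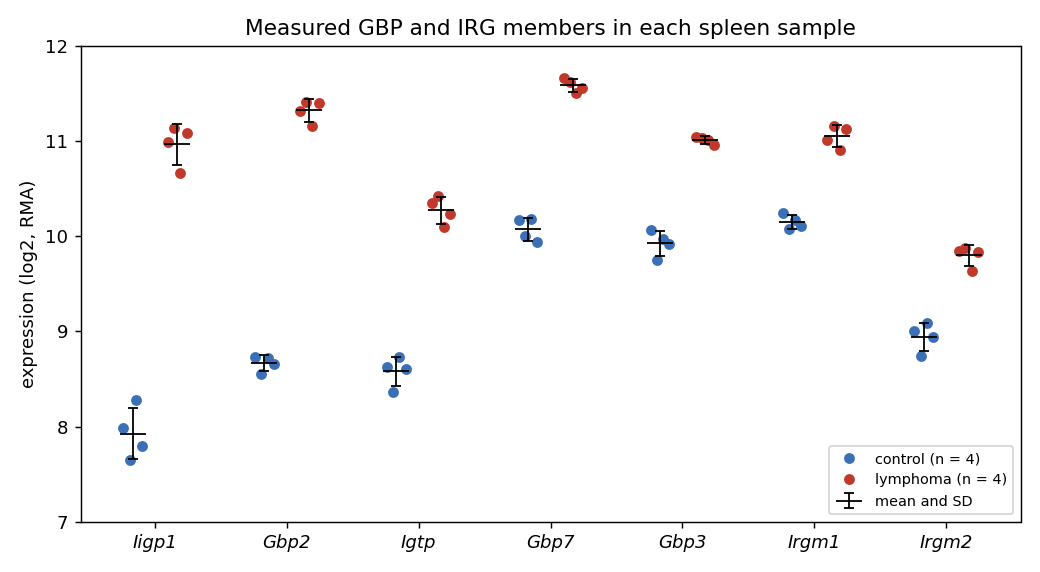
Log2 RMA value (vertical axis) of the 7 GTPase genes on each of the 8 arrays, with 1 point per array, controls and lymphomas side by side, and bars for the group mean with its SD. The groups are apart for every gene, by 2.42 for *Gbp2* and by 0.55 for *Irgm2* at the nearest arrays.

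Whether 2 genes changed by different amounts was asked for each of the 21 pairs by an exact two-sided permutation test of the per-array difference between them, over the 70 ways to label the arrays. The smallest p that this design allows is 0.0286. It was reached by 17 of the 21 pairs (0.0353 after Benjamini-Hochberg adjustment over the 21). The order *Iigp1*, *Gbp2*, *Igtp*, *Gbp7*, *Gbp3*, *Irgm1* and *Irgm2* therefore had 4 pairs, all of neighbours, that did not pass. The order is one of array values, and whether the probes of different genes respond alike to a change in RNA was not tested.

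*Iigp1* exceeded *Gbp2* by 0.39, *Igtp* exceeded *Gbp7* by 0.18 and *Gbp3* exceeded *Irgm1* by 0.18, each with an exact p of 0.0571 (adjusted, 0.06). *Irgm1* and *Irgm2* differed by 0.05 (exact p = 0.514, adjusted 0.514). The steps from *Gbp2* to *Igtp* and from *Gbp7* to *Gbp3*, of 0.96 and 0.43, were both at the smallest possible p. Between the IRG genes, *Iigp1* rose by 1.35 more than *Igtp* and by 2.19 more than *Irgm2*. *Igtp* rose by 0.84 more than *Irgm2*, the gene whose promoter window shares the long run with its own. In the controls that pair kept the most constant spacing on the arrays of all 21 pairs (SD of the difference, 0.02). This did not hold in the lymphomas, where its SD was 0.06 and that of *Gbp2* and *Irgm1* was 0.03.

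Of the 18 further GBP and IRG genes listed, 12 were measured, and 6 of them rose and 2 fell while 4 missed the threshold (median log2 fold change, 0.42). *Gbp2b*, *Gbp6*, *Gbp10*, *Gbp11*, *Tgtp1* and *Gm12185* were not analysed here. Close copies are common in these families, and whether probes of one gene also read its copies was not tested.

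The increases were uneven over the gene clusters of the genome. On chromosome 3 (GRCm38.p6, 142496934 to 142638008), the 3 measured GBP genes of 5 were the members described above, and all rose. In the second GBP cluster, on chromosome 5 (105012513 to 105346476), *Gbp4* and *Gbp8* rose by 0.84 each (limma adjusted p = 1.46e-06 and 1.89e-06). Their neighbour *Gbp9* read 10.27 to 10.58 in the controls and 10.24 to 10.43 in the lymphomas, and the groups overlapped (-0.08, adjusted p = 0.516). None of these 3 genes, the measured ones of 6 on chromosome 5, reached the smallest increase seen on chromosome 3, that of *Gbp3*, although the difference between the clusters was not tested.

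Apart from *Irgq* and *Irgc1* on chromosome 7, the listed IRG genes lie in 3 clusters, and the one on chromosome 18 held the largest increases. Beside *Iigp1* it holds *Gm4951*, which read 6.92, 6.83, 6.60 and 6.79 in the controls and 9.99, 10.21, 9.85 and 9.88 in the lymphomas, the largest increase among the GBP and IRG genes measured (3.20 ± 0.10, 9.18-fold, limma adjusted p = 2.28e-10). *F830016B08Rik* read 5.74 to 6.06 in the controls and 8.08 to 8.49 in the lymphomas (2.31, adjusted p = 8.98e-09). A further gene between them, *Gm4841*, was singled out after its values had been seen and read 6.10 to 6.60 and 7.93 to 8.73 (2.06, adjusted p = 5.34e-07). All 4 genes measured there rose by at least 2.06.

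On chromosome 11, *Igtp* and *Irgm2* lie within 39 kb with *Gm12250*, which RefSeq also calls *Irgb10*, a GTPase that acts on bacterial membranes. *Gm12250* read 9.67, 9.44, 9.89 and 9.65 in the controls and 11.03, 11.06, 10.81 and 11.10 in the lymphomas (1.34, limma adjusted p = 5.14e-07). The 3 genes of this cluster all rose, by 0.86 for the regulatory *Irgm2*, 1.34 for *Gm12250* and 1.69 for the regulatory *Igtp*. The other chromosome 11 cluster (48865245 to 49064212) behaved otherwise from gene to gene. *Irgm1* rose there as given above, and *Tgtp2* read 9.12 to 9.50 in the controls and 11.34 to 11.50 in the lymphomas (2.10, adjusted p = 9.04e-09).

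Between *Irgm1* and *Tgtp2*, *Gm5431* did not pass the test (-0.11, limma adjusted p = 0.365), and *9930111J21Rik1* and *9930111J21Rik2* were lower by 0.26 and 0.28 (adjusted p = 0.0165 and 0.0142). The values of the last 2 genes differed by at most 0.0327 on any array, so they may not be separate measurements. Whether their probes read the same RNA was not tested. Both calls were near the threshold. Without lymphoma array 2 the log2 fold change of *9930111J21Rik1* was -0.23 with a limma adjusted p of 0.0564. *9930111J21Rik2* kept its call whichever array was left out, with a largest limma adjusted p of 0.0492 over all alternatives. The IRG relatives on chromosome 7 that are not known as interferon targets, *Irgq* and *Irgc1*, did not pass either (-0.08 and -0.00).

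**Figure D3:**
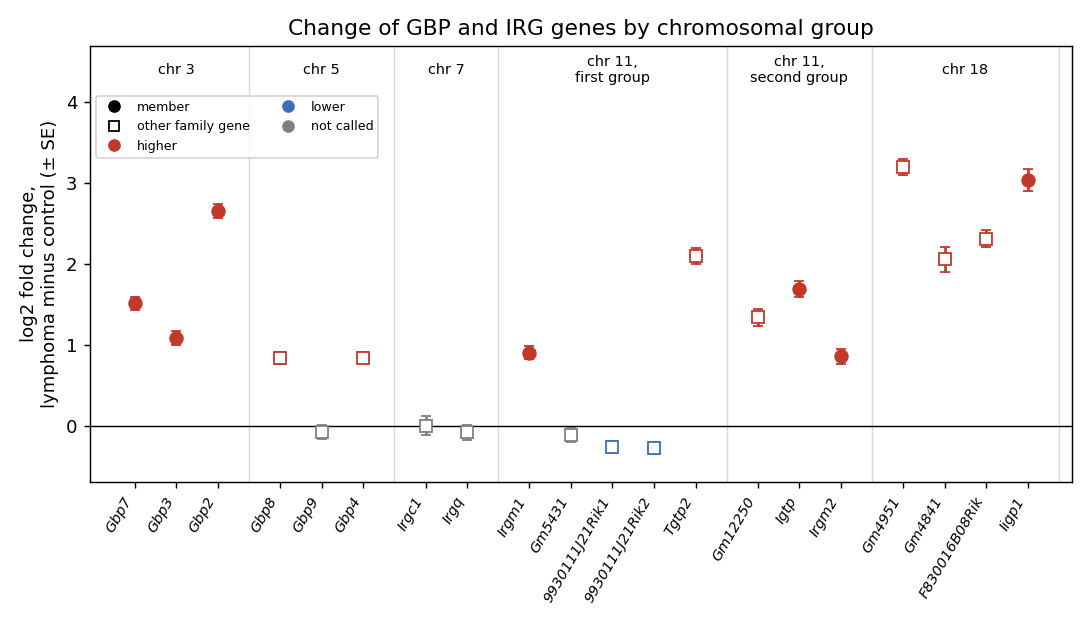
Log2 fold change, lymphoma minus control (vertical axis), of the measured GBP and IRG genes in their order along each chromosome, with 1 point per gene, its standard error as a bar, members as filled circles and other family genes as open squares, in red where called higher, blue where lower and grey otherwise. All 4 genes on chromosome 18 lie at or above 2.06, while genes that rose and genes that did not stand side by side on chromosomes 5 and 11.

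Of the 6 relatives that rose, only *Tgtp2* and *Gm12250* had a promoter entry, and *Gbp4*, *Gbp8*, *Gm4951* and *F830016B08Rik* had none. Among the relatives that did not rise, *Gbp9* and *Irgc1* had none. In the full promoter entries of 300 bases, both motifs were found for *Tgtp2* and *Gm12250*, and neither for *Gm5431*, *9930111J21Rik2* or *Irgq*. The entry of *9930111J21Rik1* held an ISRE, but from 27 to 36 bases after the start. No window of *Irgq* or *9930111J21Rik1* is printed above. Among all measured genes with an entry, an ISRE was found in 4.77% of those called higher, in 3.4% of those called lower and in 3.94% altogether. The corresponding shares for GAS were 8.38%, 9.76% and 9.02%. Among the 502 genes called at least 2-fold higher, 8.76% held an ISRE and 10.4% a GAS. These shares are descriptions of genes that are not independent of each other and were not tested.

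The cytokine for which the family is named was higher as well. *Ifng*, encoding interferon gamma, read 5.55, 5.69, 5.28 and 6.13 in the controls and 9.07, 9.47, 9.0 and 9.10 in the lymphomas, an 11.3-fold difference that ranked 12th among named genes (3.50, limma adjusted p = 7.59e-09). Of 10 further measured genes known to promote its production, 7 were called higher and 2 lower. *Tbx21*, the transcription factor T-bet, and *Ebi3*, a subunit of interleukin 27, rose by 1.26 each (adjusted p = 8.68e-06 and 2.6e-06). The other subunit, *Il27*, read 6.27 to 6.40 in the controls and 6.16 to 6.52 in the lymphomas (adjusted p = 0.992), while *Il12a* and *Stat4* fell by 0.93 and 0.46.

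The receptor and its kinases did not follow. *Ifngr1* read 10.25 to 10.43 in the controls and 10.32 to 10.45 in the lymphomas, and *Ifngr2* read 9.43 to 9.63 and 9.43 to 9.68 (0.05 and 0.04, limma adjusted p = 0.615 and 0.752). *Jak2* did not pass (-0.12, adjusted p = 0.248) and *Jak1* fell by 0.29 (adjusted p = 0.00833). Downstream of them, the transcription factors *Irf1*, *Irf8* and *Batf2* rose by 0.84, 0.75 and 0.69 (adjusted p = 2.58e-06, 8.65e-06 and 3.21e-05), less than *Iigp1* or *Gbp2*.

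Of 7 genes that restrain the pathway, 3 rose, 1 fell and 3 did not pass. *Socs1*, the inhibitor of JAK kinases that interferon gamma induces, read 7.12 to 7.43 in the controls and 8.49 to 8.78 in the lymphomas (1.36, limma adjusted p = 4.84e-07). *Socs3* rose by 1.25 and the phosphatase gene *Ptpn1* by 0.82 (adjusted p = 4.64e-06 and 3.44e-06). *Irf2*, a repressor that binds the same element as IRF1, fell by 0.49.

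Genes other than GTPases that interferon gamma is known to induce were called higher in 13 of 14 cases, with a median log2 fold change of 1.22, and 9 of them at least doubled. *Cxcl9*, a T cell-attracting chemokine, rose by 3.47 (limma adjusted p = 2.28e-10), the ubiquitin-like *Ubd* by 2.75 (3.25e-08) and *Cxcl10* by 2.58 (4.38e-09). The exception was *Ciita*, the master regulator of MHC class II genes (9.98 to 10.21 in the controls, 9.94 to 10.06 in the lymphomas, -0.08, adjusted p = 0.463). Of the 9 of these genes with an entry, 1 carried an ISRE at the start and 3 carried a GAS.

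The genes used as readouts of type I interferon gave a mixed picture. Of 19 measured, 9 rose and 10 did not pass, with a median of 0.29. At least a doubling was called for 5 of the 19, against 3.03% of all clusters. *Irf7*, *Bst2* and *Zbp1* rose by 1.70, 1.36 and 1.28 (limma adjusted p = 3.42e-06, 5.34e-07 and 5.24e-07). *Oasl2* and *Isg15* rose by 1.12 and 1.08 (adjusted p = 0.000122 and 0.00293). *Ifit1*, *Ifit3*, *Rsad2* and *Usp18* changed by 0.02 to 0.37 without passing, and their SD in the controls was 0.33 to 0.63. *Ifit1*, at 0.37, passed without control array 1 or 3 (adjusted p = 0.0292 and 0.0335). An ISRE was found in 10 of the 15 of these genes with an entry and a GAS in 3. The part of the motifs in any of these changes was not tested. Of the type I ligands and receptors, *Ifnar2* rose by 0.28 and *Ifna1* fell by 0.44 (adjusted p = 0.00825 and 0.0144), and *Ifna4* was at or below background on all 8 arrays. Whether the lists differed from each other was not tested.

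Other interferon-induced GTPase families showed smaller changes. *Gvin1*, of the very large GTPases, rose by 0.37 and *Gm1966* did not pass (-0.19). *Mx2* fell by 0.55 (limma adjusted p = 0.00271) and *Mx1* did not pass, both being annotated by RefSeq as pseudogenes.

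Among 20 genes for proteins that work with the GTPases, in the inflammasome or in autophagy, 10 rose, 2 fell and 8 did not pass, with a median of 0.22. *Casp4*, the mouse caspase-11 that senses bacterial lipopolysaccharide freed by GBPs, read 8.53 to 8.83 in the controls and 9.91 to 9.96 in the lymphomas (1.23, limma adjusted p = 1.55e-07). *Casp1* and the adaptor *Pycard* rose by 0.64 each (adjusted p = 3.51e-05 and 3.72e-05). *Aim2*, a DNA sensor that acts downstream of GBPs in the mouse, fell by 0.37, and *Atg16l1*, of the conjugation complex that loads IRGs onto vacuoles, fell by 0.41. The other genes of that complex, *Atg3*, *Atg5*, *Atg7* and *Atg12*, changed by -0.14 to 0.10 without passing. The small ubiquitin-like proteins it handles rose, with *Gabarap* at 0.54, *Gabarapl1* at 0.43, *Map1lc3b* at 0.39 and *Gabarapl2* at 0.31. The call for *Gabarapl2* was lost without control array 2 or 4 or lymphoma array 1 or 3 (limma adjusted p = 0.0789, 0.0746, 0.0557 and 0.0776).

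**Figure D4:**
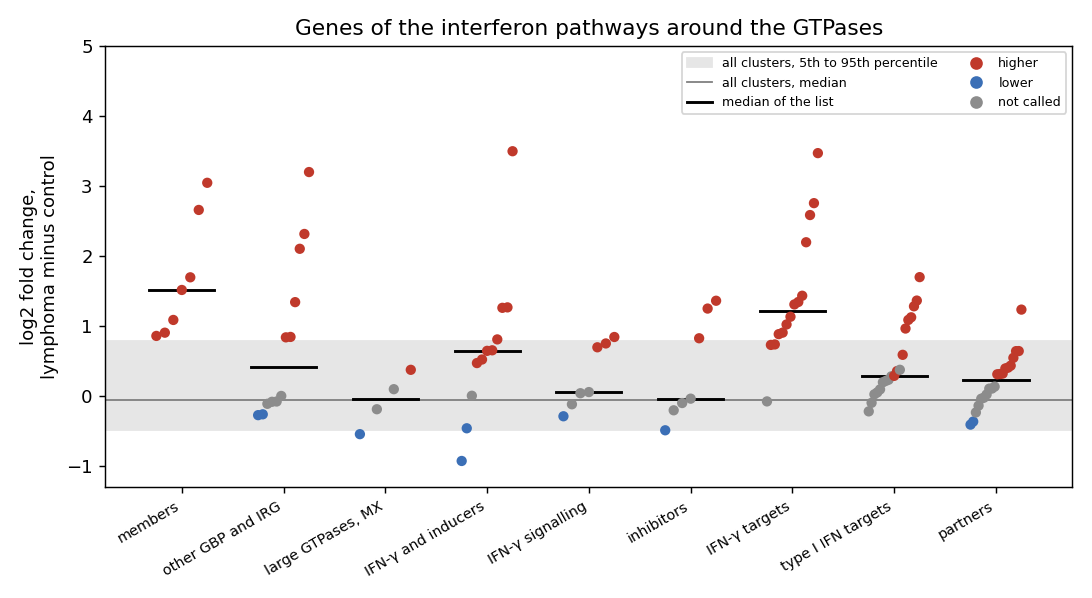
Log2 fold change, lymphoma minus control (vertical axis), of each measured gene in the interferon and GTPase lists (horizontal axis), with 1 point per gene, red where called higher, blue where called lower and grey otherwise, a black line at each list's median and a grey band over the 5th to the 95th percentile of all clusters. The GTPases have a median of 1.51 and the other interferon gamma targets 1.22, against 0.29 for the type I targets.

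Within each genotype, the same arrays tended to be low or high for the 7 GTPases. Control array 2 was the lowest of its group for 6 of the 7 genes, with a mean deviation from the group mean of -0.16, and lymphoma array 3 was the lowest for 6 of the 7, at -0.15. The highest control array was array 3 for 4 genes and array 1 for the other 3, and lymphoma array 2 was the highest for 5. These deviations are small beside the differences between the groups. The median within-group SD was 0.10 for the 7 genes and 0.13 for all clusters.

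Control array 2 was also low for the type I targets (mean deviation, -0.34, where control array 1 stood at 0.25), and lymphoma array 3 was low for the interferon gamma targets (-0.21). The type I targets of lymphoma array 3 deviated by -0.03 from their group. The markers of natural killer, dendritic, T and B cells on lymphoma array 3 stood 0.24, 0.12, 0.11 and 0.10 above their group means. Its correlation with the control arrays was 0.973 to 0.979, where the other lymphoma arrays stood at 0.967 to 0.974, and the part of these differences in its GTPase values was not tested. Without lymphoma array 3 the log2 fold change of the 7 GTPases ran from 0.91 for *Irgm2* to 3.15 for *Iigp1*, and without control array 2 it ran from 0.79 to 2.95 for the same genes. All 7 remained called in both cases, with limma adjusted p of at most 3.61e-05.

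**Figure D5:**
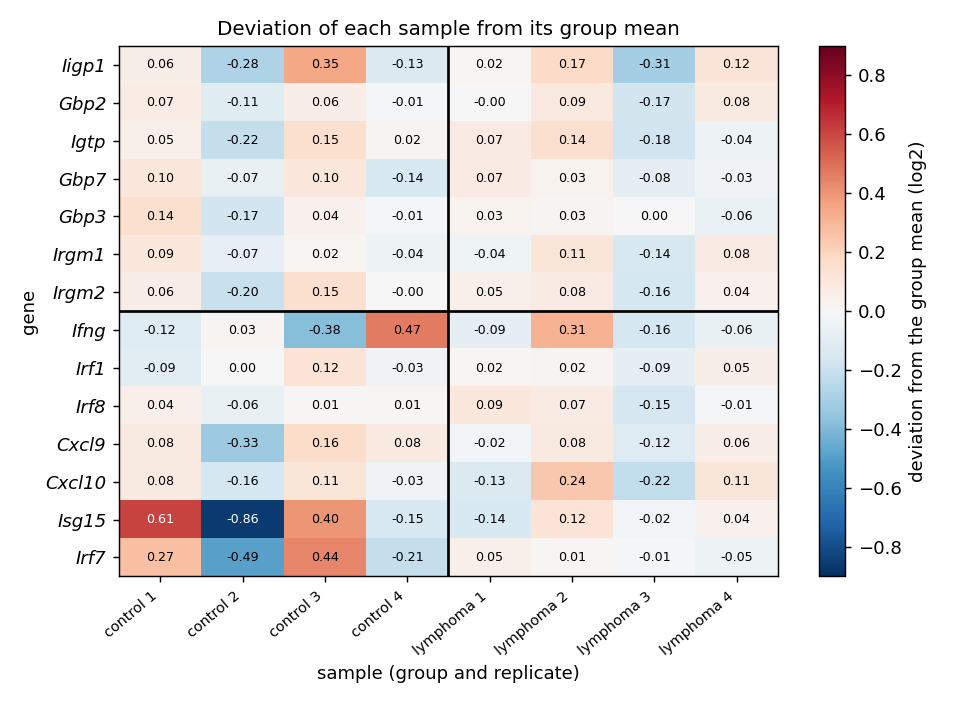
Deviation of each array from its own group's mean, in log2 units (colour and printed value), for the 7 GTPases and for other interferon genes (rows) on the 8 arrays (columns). Control array 2 and lymphoma array 3 are below 0 for most of the GTPases, with mean deviations of -0.16 and -0.15.

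Markers of several cell types changed between the same groups as the GTPases. The B cell markers fell in 9 of 9 cases, and their summed linear level went from 28810 to 30350 in the controls down to 15580 to 17580 in the lymphomas. T cell markers rose in 6 of 9 cases (5716 to 6181 against 7697 to 9005). Macrophage markers rose in 7 of 9 cases (5314 to 6201 against 12660 to 14640) and fell in 1, *Cd163*, by 1.09. Monocyte markers rose in 6 of 8 (7086 to 7806 against 10280 to 11320) and fell in 1, *Ms4a4c*, by 0.64. Neutrophil markers rose in 9 of 10 (1508 to 1782 against 11080 to 12650). *Fcgr1*, which rose by 1.31, was counted both among the monocyte markers and among the interferon gamma targets.

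Markers of natural killer cells rose in 3 of 7 cases and fell in 3 (1342 to 1575 against 2473 to 3143). *Nkg7*, *Prf1* and *Klrk1* rose by 2.10, 1.36 and 0.52, whereas *Klrb1c*, *Ncr1* and *Gzma* fell by 1.36, 1.28 and 0.43. The call for *Klrk1* was lost without control array 3 or 4 or lymphoma array 1 or 3 (limma adjusted p = 0.0725, 0.106, 0.09 and 0.102). Dendritic cell markers rose in 2 of 8 cases and fell in 3 (1773 to 1869 against 1895 to 2066). Markers of endothelium, stroma and red cell precursors rose in 1 of 7, 3 of 7 and 1 of 4 cases and fell in 2, 1 and 0. No marker of these lists was at or below background on all arrays. The part of these cells in the GTPase increases was not tested.

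The genes whose pattern over the 8 arrays was most like the mean of the 7 GTPases were found by the root mean square difference in log2 units, after subtracting each gene's control mean, among 19498 other genes. They were *Pla2g2d* (0.0754), *Itgax* (0.0837), *Rgs1* (0.0901), *Kif15* (0.0983) and *Uhrf1* (0.0994), and their log2 fold changes ran from 1.63 for *Uhrf1* to 1.75 for *Pla2g2d*. *Pla2g2d* makes a secreted phospholipase, *Itgax* the integrin chain CD11c, *Rgs1* a regulator of G protein signalling, *Kif15* a mitotic kinesin and *Uhrf1* a protein that maintains DNA methylation. *Pla2g2d* read 10.79, 10.71, 10.79 and 10.68 in the controls and 12.54, 12.59, 12.29 and 12.54 in the lymphomas, again lowest on lymphoma array 3. Among the GTPases themselves, *Igtp* lay nearest to the common pattern (0.0503) and *Iigp1* farthest (0.973). The measure takes in the size of the change between the groups, which all these genes share, and is given as a description.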

How the data were processed

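Gene expression in total spleen RNA was read on 8 Affymetrix arrays (Clariom S Assay HT). The deposited values are log2 intensities, which the authors obtained by robust multichip average (RMA; R 3.6.3 per the labels). The table held 29129 rows, of which 6923 control probe sets were left out, leaving 22206 transcript clusters. Symbols came from the platform annotation (19572 clusters with 1 symbol, 2634 with none). Background was read from 23 background probe sets.

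Lymphoma was set against control with limma 3.58.1 in R 4.3.3 (lmFit and eBayes, group as the only term), and p-values were adjusted by Benjamini-Hochberg over all clusters, at a threshold of 0.05. A list is given by its counts and median, without a test of its own. Pairs of genes were compared by an exact permutation test; since *Gbp5* was not measured, 21 pairs were possible and not the 28 planned. Summed levels of marker lists were taken on the linear scale. The genes named were the members, the main interferon gamma axis, all called GBP and IRG relatives, the 3 called genes with the largest change in each other list, and the 5 genes most like the members; others are named to account for a list, and were chosen after their values were seen. The members and lists were chosen with earlier results of these data known.

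Alternatives were a replicate block, cyclic loess, equal array medians, trended and robust moderation, array weights, no moderation, the dimmest 25% or 50% of clusters left out, a threshold of 0.01 and leaving out each array. Promoter sequences are from RefSeq. Probe sequences and scanner files were not used here. Some genes of the pathway are not reported here.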

Additional observations from a re-analysis of the deposited data

Results flagged for a closer look

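In 6 of the 172 groups of 4 arrays examined, 1 array stood further from the others than Dixon's 95% limit, and chance alone marks about 1 in 20 groups. *Irgm2* on lymphoma array 3 read 9.64, where the other lymphoma arrays read 9.84 to 9.87. *Jak1* on the same array read 9.65, above the 9.55 to 9.56 of the others. *Cxcl9* on control array 2 read 8.79, below the 9.20 to 9.28 of the other controls. *Ifnar2* on control array 2 read 10.5, where the others read 10.55 to 10.56. *Atg3* on lymphoma array 4 read 9.66, below the 9.79 to 9.80 of the others. *Prf1* on control array 1 read 7.24, above the 6.99 to 7.02 of the other controls.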

How the results depend on the processing

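The 7 GTPases kept their direction and their call under all 17 alternatives run for each, with a largest limma adjusted p of 0.00137. Of the 86 genes run, these included, 78 kept theirs under each alternative that held them. Without moderation *Ifna1*, *Gabarapl2* and *Klrk1* lost their calls (adjusted p = 0.0783, 0.0726 and 0.156), at a threshold of 0.01 so did these 3, *9930111J21Rik1*, *9930111J21Rik2* and *Vav1*, and leaving out 1 array ended 3 calls named in the report. *Gm1966* passed under 6 alternatives (largest adjusted p, 0.0453) and *Ifit1* with trended and robust moderation or without the dimmest 50% (0.0457 and 0.0396). Clusters called lower numbered 2166 at 0.01, against 3825 at 0.05. Leaving out 1 array at a time gave 3565 to 3910 clusters higher and 3062 to 3670 lower, 7 members, 6 other GBP and IRG genes, 13 interferon gamma targets, 7 to 10 type I targets, and 16 to 18 pairs of unequal change. Without the dimmest 50% of clusters, which drops dim genes from the lists, 9 interferon gamma targets and 5 other GBP and IRG genes were higher, and without moderation 6 type I targets. Equal array medians gave 3740 higher and 4605 lower. Same-numbered arrays of the 2 genotypes did not deviate together in every pair (correlations of 0.12, 0.038, 0.035 and 0.172, against -0.14 to 0.061 for other pairs), and nothing in the labels ties them, so they were treated as sharing only a number, although 7 of 8 arrays correlated best with their own number. With the replicate number as a block, 4039 clusters were higher and 3983 lower, and no member changed its call. Low signal limits *Ifna4*, at background on all arrays, and *Mmp8*, *Chil3* and *Ido1*, at or below it on 2, 1 and 1 control arrays. The number of arrays limits the rest.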
